A study of Homo sapiens with 6 samples.

Results

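The genes described here are 10 that encode peptide hormones known from small cell lung cancer (SCLC), namely GRP, NMB, CALCA, CALCB, NMU, ADCYAP1, GAL, SST, POMC and VGF. They were listed by name as known SCLC hormones, with earlier results of these data known, and all 10 were found among the 62696 genes in the count tables. RNA came from DMS53, an established SCLC cell line with neuroendocrine (NE) features. The cells received lentivirus with either an empty mGFP plasmid (control, 3 libraries) or a plasmid for mGFP-tagged ONECUT2 (OC2-OE, 3 libraries), which was expressed constitutively, and puromycin was used to select both groups. Each condition was studied in independent experiments, but it is not said whether these began from separate transductions, so the p-values measure the spread between these libraries.

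Neuropeptides are made as longer precursors that enter the secretory granules of NE cells, where convertases cut them at pairs of basic residues and further enzymes trim and amidate their ends. The released peptide binds a G protein-coupled receptor on the same or on neighbouring cells. Gastrin-releasing peptide and neuromedin B, the mammalian bombesin-like peptides, are classical autocrine growth factors of SCLC, and calcitonin, corticotropin and other hormones are long known to be secreted by these tumours.

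The libraries held 16533284 to 19099337 counts of read pairs. ONECUT2 checked the labels, with 394 to 465 counts in the control libraries and 68853 to 74031 in the OC2-OE libraries. All 10 markers of NE cells on a short list were measured in every library, and their summed level was 2914 to 2922 CPM in control and 2529 to 2572 CPM in OC2-OE cells. CPM are counts scaled to a common library total after TMM normalization. Of these markers 3 were higher and 5 lower in OC2-OE cells at an adjusted p under 0.001 in edgeR, where 56.5% of all tested genes were called. A fall of at least 2-fold was called for 4 of the 10, against 9.04% of all genes. In mean CPM, DDC went from 503 to 87.3, INSM1 from 329 to 86.6, NCAM1 from 164 to 41.2 and ELAVL4 from 33.03 to 13.24. Among the higher 3, CHGA went from 72.2 to 150 CPM. UCHL1, the largest part of the sum, rose from 1077 to 1430 CPM, so the sum hides these falls. The 5 epithelial markers, abundant in this carcinoma line, summed to 4208 to 4281 CPM in control and 3442 to 3502 CPM in OC2-OE cells. Among them KRT8 and KRT18 were called lower and EPCAM higher, and CDH1 and CLDN7 did not pass. The markers of other cell types were low. The leukocyte list of 5 genes summed to 3.32 to 4.12 CPM in control and 5.598 to 6.48 CPM in OC2-OE cells, most of it CD14, with CD3E at 0 counts and PTPRC at 0 counts in control and 3 in OC2-OE cells. The list of 7 fibroblast genes summed to 21.2 to 23.9 and 28.2 to 32.3 CPM, most of it COL1A1, with DCN at 3 counts in each group and PDGFRB, which was tested only through its OC2-OE libraries, at 8 counts in control and 49 in OC2-OE cells. The list of 4 endothelial genes summed to 3.05 to 4.01 and 2.36 to 3.35 CPM, with CDH5, which was tested only through its control libraries, at 52 and 3 counts, VWF at 1 and 17 and PECAM1 at 125 and 134. The part of these cell types in the results was not tested.

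Of the promoters, 3 are printed. GRP is shown because it moved farthest, and SST and VGF because both hold the cAMP response element (CRE) while SST fell and VGF did not pass the test. Each sequence is the 250 bases before the RefSeq start on GRCh38.p14, 5′ to 3′ on the strand of the gene, with the CRE in capitals.
GRP, chr18:59219908-59220157, plus strand: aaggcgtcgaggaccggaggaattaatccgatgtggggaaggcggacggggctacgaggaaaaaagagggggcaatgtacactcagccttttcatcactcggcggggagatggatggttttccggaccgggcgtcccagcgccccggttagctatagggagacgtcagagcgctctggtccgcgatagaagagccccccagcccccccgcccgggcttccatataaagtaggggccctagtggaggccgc
SST, chr3:187670395-187670644, minus strand: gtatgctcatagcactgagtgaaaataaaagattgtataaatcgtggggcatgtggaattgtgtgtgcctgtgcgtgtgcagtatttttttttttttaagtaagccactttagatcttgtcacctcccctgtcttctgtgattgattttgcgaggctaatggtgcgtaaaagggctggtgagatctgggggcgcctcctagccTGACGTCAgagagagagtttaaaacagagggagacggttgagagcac
VGF, chr7:101165570-101165819, minus strand: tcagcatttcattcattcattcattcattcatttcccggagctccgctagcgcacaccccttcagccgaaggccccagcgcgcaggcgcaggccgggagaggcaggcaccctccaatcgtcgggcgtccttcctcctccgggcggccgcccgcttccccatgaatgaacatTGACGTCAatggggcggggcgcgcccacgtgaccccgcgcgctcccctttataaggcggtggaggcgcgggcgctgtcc
A promoter was at hand for 8 of the 10 genes, which leaves out CALCB and GAL. Both strands were searched for TGACGTCA (the CRE), CAGCTG (an E-box of basic helix-loop-helix factors) and ATCGAT and ATCAAT (cores of ONECUT sites). The CRE stood at -47 to -40 from the start of SST and at -79 to -72 from that of VGF, and 1.65% of 35116 promoters of this length held one. ATCAAT, found in 5.58% of promoters, stood at -110 to -105 in SST and at -180 to -175 in CALCA. CAGCTG, found in 13.99% of promoters, stood at -12 to -7 from the second listed start of ADCYAP1. ATCGAT, found in 0.655% of promoters, was in none of these windows, and the windows of GRP, NMB, NMU and POMC held none of the 4 motifs. No matches overlapped. A match of letters is not a binding site. Only exact words were searched, so near matches such as AGACGTCA in the GRP window were not counted. A missing match is therefore not the lack of a site.

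The question was how these genes differed between OC2-OE and control cells. GRP, ADCYAP1, NMU, SST and CALCA fell in OC2-OE cells, NMB rose, CALCB, GAL and VGF did not pass the test and POMC was too low to be tested. The falls ranged from 21.2-fold for GRP to 1.43-fold for CALCA, and NMB rose 1.32-fold. At an adjusted p under 0.001 in edgeR's quasi-likelihood test, 6 of the 9 tested genes (66.7%) had changed, against 56.5% of the 17307 genes tested, so that this share is close to the background. In the downward direction it was 5 of 9, against 28.7% of all genes, and in the upward direction 1 of 9, against 27.8%. A fall of at least 2-fold was called for 3 of the 9, GRP, ADCYAP1 and NMU, against 9.04% of all genes. No rise of this size was called, so that both directions together also gave 3 of the 9, against 17.3% of all genes. The groups did not overlap for 7 of the 9 genes, against 73.2% of all genes. The median log2 fold change of the 9 was -0.52, where the median of all tested genes was 0.01 and their quartiles were -0.36 and 0.40. In these bulk libraries, fewer cells that make a peptide and less of its RNA in each cell cannot be told apart.

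**Figure D1:**
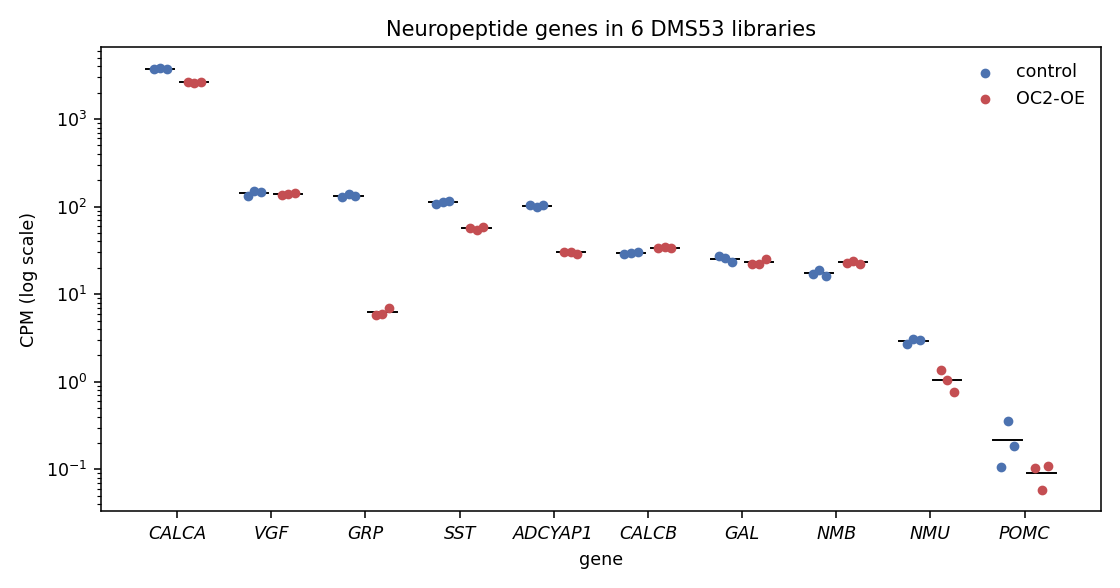
CPM on a log axis for the 10 neuropeptide genes, ordered by their mean in control cells, with 1 point per library and a bar at the mean of the 3 libraries of each group. The groups are apart for GRP, ADCYAP1, SST, NMU, CALCA, NMB and CALCB and overlap for VGF, GAL and POMC.

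**Figure D2:**
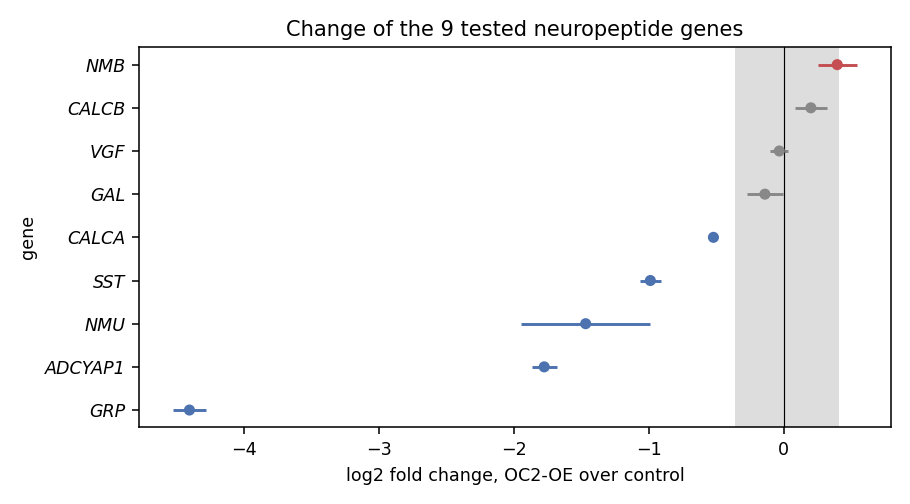
Log2 fold change of OC2-OE over control for the 9 tested neuropeptide genes, with 95% confidence intervals from the edgeR fit. Blue genes were lower and red genes higher at an adjusted p under 0.001, grey genes did not pass, and the grey band marks the quartiles of all 17307 tested genes (-0.36 and 0.40), which GRP, ADCYAP1, NMU, SST and CALCA lie below. The values of NMB, CALCB, GAL and VGF lie within the band.

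Of the bombesin-like peptides, GRP (ENSG00000134443.10) lies on chromosome 18 of GRCh38 from 59220158 to 59230774, 1.73 Mb beyond ONECUT2 on the same chromosome. Its level was 128, 138 and 131 CPM in control replicates 1, 2 and 3, and 5.79, 5.94 and 6.97 CPM in OC2-OE replicates 1, 2 and 3. Every OC2-OE library was far below every control library. The means were 132 ± 4.92 and 6.24 ± 0.641 CPM (SD, n = 3), which is -4.41 on the log2 scale (SE 0.061, adjusted p = 7.87e-96, edgeR), which rests on 6830 counts in control and 341 in OC2-OE libraries. Leaving out any 1 library gave values between -4.49 and -4.35. NMB (ENSG00000197696.10), on chromosome 15 from 84655129 to 84658563, encodes neuromedin B and moved the other way. It had 17.2, 19.004 and 16.3 CPM in control against 22.9, 24.2 and 22.1 CPM in OC2-OE libraries. The lowest OC2-OE library was above the highest control library. Its log2 fold change was 0.397 (SE 0.074, adjusted p = 8.94e-07, edgeR), just under the upper quartile of all tested genes (0.404). The log2 difference is small beside that of GRP, and after it NMB was the higher of the pair per length, at 22.6 ± 1.08 RPKM against 7.24 ± 0.744 RPKM for GRP in OC2-OE cells (SD, n = 3), where control cells had 17.1 ± 1.35 and 154 ± 5.71. RPKM divides the CPM by the deposited exon length in kilobases.

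GRPR, the receptor that prefers GRP, had 6, 3 and 7 counts in control against 43, 33 and 33 in OC2-OE libraries. It was higher in every OC2-OE library, while its ligand was lower. Its mean rose from 0.310 ± 0.126 to 1.99 ± 0.228 CPM (SD, n = 3), which is 2.66 on the log2 scale (SE 0.36, adjusted p = 5.09e-11, edgeR). It stayed a low transcript, at 0.822 RPKM in OC2-OE cells, and it entered the test only through the OC2-OE libraries, since no control library held 10 counts. NMBR, the receptor of neuromedin B, had 12 counts in control and 14 in OC2-OE libraries, and the related orphan receptor BRS3 had 6 in each group, too few to be tested.

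The calcitonin family held the most abundant of the 10 genes. CALCA (ENSG00000110680.14), on chromosome 11 from 14966622 to 14972354, encodes calcitonin and, by alternative splicing, the calcitonin gene-related peptide CGRP, and a count per gene does not separate these products. It had 3772, 3785 and 3766 CPM in control against 2654, 2601 and 2636 CPM in OC2-OE libraries. The groups were well apart and the libraries within each nearly equal. The log2 fold change was -0.52 (SE 0.017, adjusted p = 4.82e-56, edgeR). At 1736 ± 4.59 RPKM in control and 1210 ± 12.4 RPKM in OC2-OE cells (SD, n = 3), CALCA was at or above the level of 99.9% of the tested genes in both groups. The 10 genes together took 0.426% ± 0.00292 of all counts in control and 0.299% ± 0.00288 in OC2-OE cells (SD, n = 3), and CALCA made up 87.0% ± 0.311 and 89.4% ± 0.154 of this sum. CALCB (ENSG00000175868.14), which encodes the second CGRP, is annotated on chromosome 11 from 14904997 to 15082342 on the opposite strand, so that CALCA lies within its span but between its exons. CALCB had 28.8, 29.4 and 30.5 CPM in control against 33.8, 34.7 and 33.4 CPM in OC2-OE libraries. All OC2-OE libraries were above all control libraries, but its log2 fold change of 0.20 (SE 0.059, 95% confidence interval 0.09 to 0.32) did not pass the threshold (adjusted p = 0.00146, edgeR). Over the other settings tried, its adjusted p ran from 8.17e-05 to 0.0122. The level of CALCB is the less certain of the pair, since read pairs that map to both of these close paralogs were not counted, nor were pairs in the 115 exon bases (2.92%) that CALCB shares with the pseudogene CALCP on the same strand.

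CGRP acts through the receptor CALCRL together with its partner RAMP1, and both fell in OC2-OE cells. RAMP1 was the most abundant receptor partner on the list and went from 132 ± 8.06 to 69.6 ± 1.62 RPKM (SD, n = 3), or -0.92. on the log2 scale CALCRL went from 4.62 ± 0.120 to 1.73 ± 0.102 RPKM, a log2 fold change of -1.42 (adjusted p = 5.81e-38, edgeR). RAMP2, which directs CALCRL towards adrenomedullin, rose by 1.24 on the log2 scale from 47 counts to 118. The calcitonin receptor CALCR, tested only through its OC2-OE libraries, had 39 counts in control and 95 in OC2-OE libraries (1.19 on the log2 scale), with an adjusted p of 0.000255 in edgeR that did not hold in 4 of the 14 other settings in which it was tested. RAMP3 had no count in any library. CRCP, a component linked to CGRP signalling and RNA polymerase III, was high at 37.9 ± 0.231 RPKM and rose by 0.20 on the log2 scale (adjusted p = 1.78e-08, edgeR).

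ADCYAP1 (ENSG00000141433.13), on chromosome 18 from 904871 to 912172, encodes PACAP, which raises cAMP in its target cells. It had 105, 99.3 and 103 CPM in control against 30.7, 30.5 and 28.8 CPM in OC2-OE libraries. The OC2-OE libraries all lay far below the lowest control library. The log2 fold change was -1.78 (SE 0.046, adjusted p = 2.96e-66, edgeR), a 3.42-fold fall. Genes on the other strand overlap 17.2% of its exon bases, and the strand was used in counting. ADCYAP1R1, the main PACAP receptor, had 1 count in each group, VIPR2 had 0 in control and 2 in OC2-OE libraries, and VIPR1 had 3.88 ± 0.305 and 3.62 ± 0.624 CPM (SD, n = 3) and did not pass the test (adjusted p = 0.629, edgeR, 95% confidence interval of the log2 fold change -0.42 to 0.24).

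SST (ENSG00000157005.4), on chromosome 3 from 187668912 to 187670394, encodes somatostatin, which inhibits hormone release. It had 106, 113 and 116 CPM in control against 56.4, 54.5 and 58.2 CPM in OC2-OE libraries. The groups did not overlap, and the log2 fold change was -0.99 (SE 0.040, adjusted p = 2.44e-46, edgeR). Per length SST was second to CALCA in both groups, at 184 ± 8.91 and 92.8 ± 3.05 RPKM (SD, n = 3). Its receptor SSTR2, the usual target of somatostatin analogues, fell from 6.85 ± 0.462 to 2.03 ± 0.616 CPM (SD, n = 3), which is -1.75 on the log2 scale (SE 0.17, adjusted p = 1.41e-17, edgeR). SSTR1 fell by 0.67 on the log2 scale and was, at 4.10 RPKM in control and 2.57 in OC2-OE cells, the most abundant of the 5 somatostatin receptors. SSTR3 and SSTR4 had no count, and SSTR5 had 1 in each group.

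NMU (ENSG00000109255.11), on chromosome 4 from 55595229 to 55636698, encodes neuromedin U, a peptide of smooth muscle contraction and feeding. It was low, with 51, 52 and 49 counts in control against 26, 18 and 14 in OC2-OE libraries. The groups did not overlap, and the means were 2.95 ± 0.197 and 1.05 ± 0.294 CPM (SD, n = 3). The log2 fold change was -1.47 (SE 0.24, adjusted p = 4.07e-08, edgeR), and leaving out any 1 library gave values between -1.69 and -1.28. NMUR2, one of its receptors, had 6, 9 and 10 counts in control against 49, 43 and 66 in OC2-OE libraries, which is 2.56 on the log2 scale (SE 0.29, adjusted p = 1.12e-13, edgeR). Like GRPR, it entered the test through the OC2-OE libraries, where it was higher, and with at least 10 counts required in every library neither receptor was tested. NMUR1 had 1 count in control and 5 in OC2-OE libraries.

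GAL (ENSG00000069482.7), on chromosome 11 from 68683779 to 68691175, encodes galanin. It had 27.0, 25.7 and 23.5 CPM in control against 22.2, 22.2 and 24.9 CPM in OC2-OE libraries. These ranges overlap, and the log2 fold change of -0.14 (95% confidence interval -0.27 to -0.0049) did not pass the threshold (adjusted p = 0.0585, edgeR). GALR2, a galanin receptor, fell from 4.99 ± 0.260 to 2.57 ± 0.306 CPM (SD, n = 3), or -0.95 on the log2 scale (adjusted p = 3.04e-07, edgeR). GALR1 had no count, and GALR3 had 5 and 2.

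VGF (ENSG00000128564.8), on chromosome 7 from 101162509 to 101165569, encodes a granule protein that is cut into several peptides. It had 132, 150 and 146 CPM in control against 137, 138 and 143 CPM in OC2-OE libraries. The OC2-OE libraries lay within the range of the control libraries. The log2 fold change was -0.03 (SE 0.034, adjusted p = 0.389, edgeR) with a 95% confidence interval of -0.10 to 0.03, from 7361 and 7630 counts. Its sign depended on the scaling and on control replicate 2, without which the value was 0.0052. C3AR1, a receptor proposed for the VGF peptide TLQP-21, had no count.

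POMC (ENSG00000115138.11), on chromosome 2 from 25160853 to 25168903, encodes the precursor of corticotropin and the melanocortins. It had 2, 6 and 3 counts in control against 2, 1 and 2 in OC2-OE libraries, too few for the test. The 11 and 5 counts give a ratio of OC2-OE to control of 0.429 with a 95% counting interval of 0.117 to 1.34, and the libraries overlap. The interval covers counting error only. Of the melanocortin receptors, MC1R rose from 8.72 ± 0.478 to 12.3 ± 1.04 CPM (SD, n = 3, log2 fold change 0.50), MC2R, MC3R and MC5R had no count and MC4R had 8 and 1.

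Ordered per length, control cells had CALCA, SST, GRP, VGF, ADCYAP1, GAL, NMB, CALCB, NMU and POMC from highest to lowest, and only GAL (19.5 ± 1.36 RPKM) and NMB (17.1 ± 1.35 RPKM) were neighbours whose libraries overlapped. In OC2-OE cells the order was CALCA, SST, VGF, NMB, GAL, CALCB, ADCYAP1, GRP, NMU and POMC, and only ADCYAP1 (7.74 ± 0.264 RPKM) and GRP (7.24 ± 0.744 RPKM) overlapped (SD, n = 3). GRP thus moved from rank 3 to rank 8 and ADCYAP1 from rank 5 to rank 7. The exon length of CALCB, 3938 bases over 12 exons in the annotation, is long for a peptide gene and lowers its RPKM. The same holds for ADCYAP1, with 3877 exon bases against 861 for GRP. In CPM, ADCYAP1 (30.0 ± 1.02) and GRP (6.24 ± 0.641) were apart in OC2-OE cells (SD, n = 3).

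**Figure D3:**
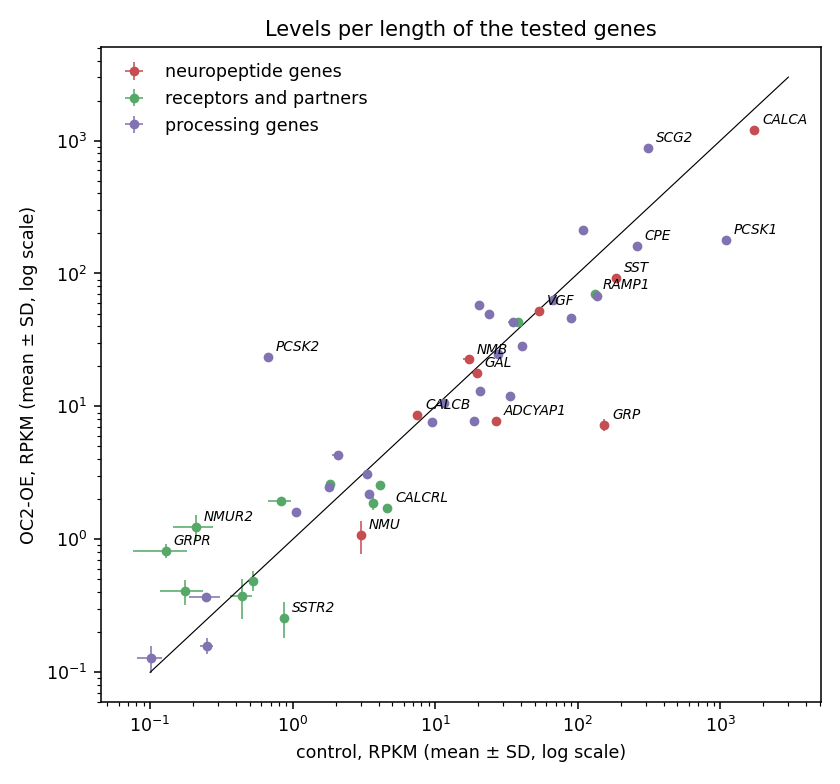
RPKM in OC2-OE against control cells on log axes for the tested neuropeptide genes, receptors and their partners, and processing genes, as means with SD over 3 libraries, with a line of equality. GRP (154 and 7.24 RPKM), ADCYAP1 and PCSK1 lie far below the line, and PCSK2 (0.673 and 23.5 RPKM) far above it.

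Over the whole list of 30 receptors and receptor partners, 13 could be tested, of which 6 were higher and 5 lower in OC2-OE cells and 2 did not pass. That is 84.6% of those tested, against 56.5% of all genes. Where each library had to hold 10 counts, 10 were tested, of which 3 were higher and 5 lower, since GRPR, NMUR2 and CALCR dropped out. Over all 13 tested in the main fit, GRPR, NMUR2 and CALCR included, the median log2 fold change was -0.09. Of the 30, 8 had no count in any library. The ligand and receptor sides of a pair went the same way for SST with SSTR2 and SSTR1 and for CALCA with CALCRL and RAMP1. They went opposite ways for GRP with GRPR, NMU with NMUR2 and CALCA with CALCR. These 3 receptors were tested only through their OC2-OE libraries. CRCP, linked to CGRP signalling, also rose (0.20 on the log2 scale) while CALCA fell, with 6928 counts in control and 8398 in OC2-OE libraries.

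The enzymes that turn the precursors into peptides were measured with the granins and release factors of the granule as a list of 27 genes, of which 26 could be tested. Of these, 8 were higher, 12 lower and 6 did not pass (76.9% called, against 56.5% of all genes), with a median log2 fold change of -0.11. Of the 7 convertases on the list, PCSK1 and PCSK2 moved farthest, FURIN fell by 0.95 on the log2 scale and PCSK6 by 0.66, a call lost in 3 of 15 settings, and PCSK4, PCSK5 and PCSK7 did not pass. PCSK1, which encodes PC1/3, had 5934, 5746 and 5891 CPM in control against 970, 955 and 953 CPM in OC2-OE libraries, which is -2.61 on the log2 scale (SE 0.018, adjusted p = 6.15e-129, edgeR). PCSK2, which encodes PC2, had 4.60, 4.66 and 4.92 CPM in control against 165, 165 and 167 CPM in OC2-OE libraries, which is 5.13 on the log2 scale (SE 0.060, adjusted p = 1.24e-103, edgeR). The 2 enzymes thus changed in opposite directions, and the ratio of PCSK1 to PCSK2 per length went from 1627 ± 60.7 to 7.60 ± 0.0991 (SD, n = 3), with PCSK1 still the higher in every library. PAM, which amidates peptides such as GRP and calcitonin, fell from 137 ± 0.848 to 67.4 ± 0.720 RPKM (SD, n = 3). CPE, which trims basic residues, fell from 259 ± 9.52 to 162 ± 5.01 RPKM, and QPCT, which forms N-terminal pyroglutamate, rose from 109 ± 1.69 to 211 ± 4.08 RPKM. Of the granins, SCG2 and CHGA rose by 1.504 and 1.06 on the log2 scale, SCG2 from 311 ± 8.30 to 882 ± 3.99 RPKM, while CHGB fell by 0.14, a call lost in 6 of 15 settings, and SCG3 did not pass (log2 fold change -0.07). The protease cathepsin L (CTSL) rose by 1.07.

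**Figure D4:**
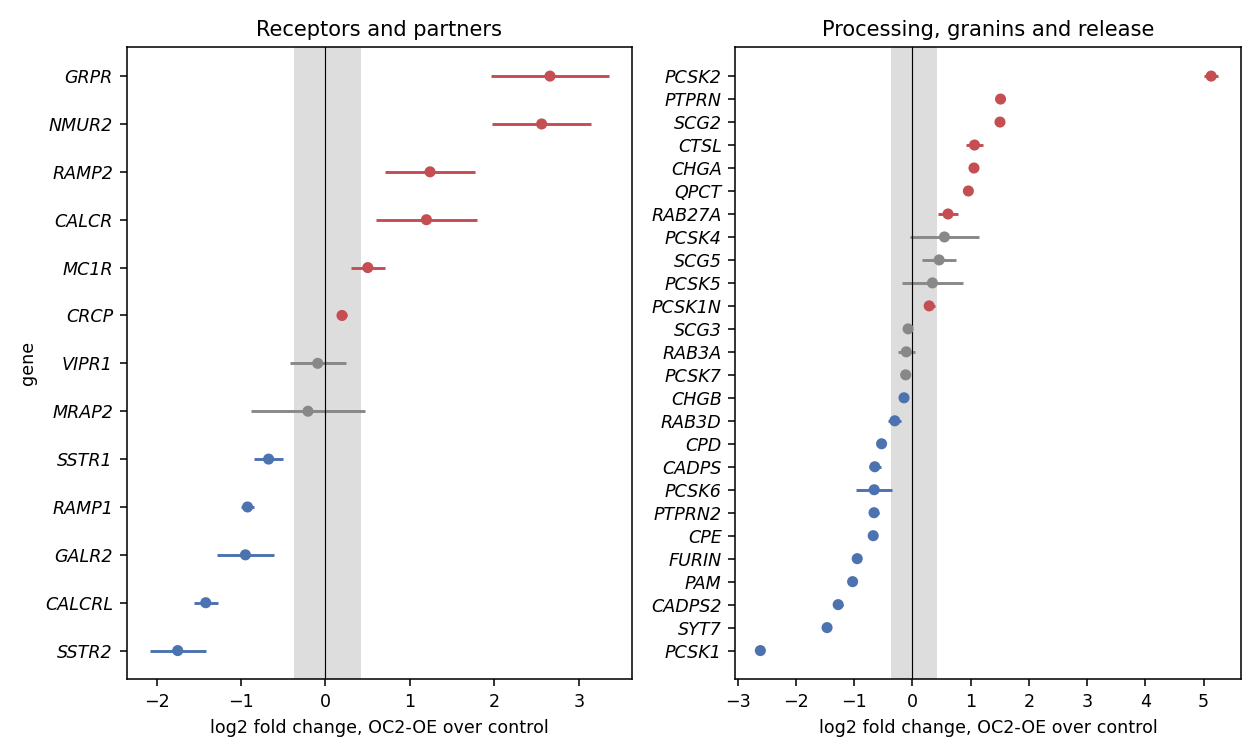
Log2 fold change of OC2-OE over control with 95% confidence intervals for the 13 tested receptors and partners (left) and the 26 tested processing, granin and release genes (right). Red genes were higher and blue genes lower at an adjusted p under 0.001, grey genes did not pass, and the grey band marks the quartiles of all tested genes. GRPR and NMUR2 stand highest on the left at 2.66 and 2.56, and PCSK2 and PCSK1 at the ends of the right panel at 5.13 and -2.61. GRPR, NMUR2 and CALCR were tested only through their OC2-OE libraries, where they were higher.

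Among 61 other genes of neuropeptides and related hormones, 18 could be tested and 15 had no count in any library. Of the 18, 6 were higher and 6 lower in OC2-OE cells (66.7%, against 56.5% of all genes), with a median log2 fold change of 0.17. The 6 lower calls became 3 without OC2-OE replicate 3 and 2 where each library had to hold 10 counts, while the higher calls stayed at 6 in both. PENK, the enkephalin precursor and one of the 6, fell by 0.27 and lost its call in 12 of 15 settings. Neurotensin (NTS), also a growth factor of SCLC cells, rose from 5.49 ± 0.167 to 12.9 ± 0.335 CPM (SD, n = 3), which is 1.23 on the log2 scale (SE 0.11, adjusted p = 1.81e-19, edgeR). ADM2, a peptide of the calcitonin family, rose by 1.05 from 22.2 ± 0.219 CPM, and cholecystokinin (CCK) by 1.08 from 68 counts. PTHLH, the hormone of tumour hypercalcaemia, rose from 23.9 ± 1.63 to 35.5 ± 1.34 CPM (SD, n = 3), or 0.57. on the log2 scale SPX, which encodes spexin, was the most abundant of these genes per length at 26.2 ± 0.494 RPKM and rose by 0.42, and NUCB2, the nesfatin precursor, rose by 0.65. Adrenomedullin (ADM) had 23.0 ± 1.11 and 26.4 ± 1.83 CPM (SD, n = 3) and missed the threshold (adjusted p = 0.00677, edgeR). Others of the lower genes had few counts, NPY with 40 and 6 (log2 fold change -2.74), IAPP with 46 and 9 (-2.39), KISS1 with 105 and 34 (-1.70) and UCN3 with 83 and 34 (-1.36). NPY, IAPP and KISS1 were tested only through the control libraries, where they are high. The call of IAPP was lost in 2 of the 14 settings in which it was tested and that of UCN3 in 4 of 15, and NPY, IAPP and KISS1 dropped out of the test with at least 10 counts in every library. APLN, which encodes apelin, fell from 7.70 ± 0.896 to 3.59 ± 0.193 CPM (SD, n = 3), or -1.10. on the log2 scale

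For the 3 members that moved farthest, the genes with the most similar profile were found as those with the smallest root mean square distance between 6 log2 CPM values, each less the control mean, among 17210 genes with a count in every library. For GRP these were TDRD12 (distance 0.085), ZP1 (0.18) and a gene without a symbol. TDRD12 had 6.28 CPM in control and 0.310 CPM in OC2-OE cells, so its distance rests on few counts. For ADCYAP1 they were PHLDB2 (0.027), SYT4 (0.032) and SMOC1 (0.043). For NMU they were RNF148 (0.14), also low at 1.07 and 0.398 CPM, and 2 genes without a symbol. With libraries in 2 groups, such a distance mostly measures an equal fold change.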

How the data were processed

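RNA-Seq was analysed from 6 libraries of DMS53 cells. Per the labels and the file headers, the authors made stranded libraries from poly(A) RNA, aligned reads with STAR version 2.7.9a (named in the submitters' processing notes) and counted read pairs on the exons of GENCODE release 42 genes on GRCh38 with featureCounts version 1.6.0. The deposited values are raw counts per gene, without normalization or filter. The default options leave out read pairs that fit several places or genes.

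Symbols were found through the Ensembl identifier, for 42339 of 62696 genes, keeping the identifier with most counts if a symbol had more than 1. Counts were normalized with TMM in edgeR version 4.0.16 under R version 4.3.3, filtered with filterByExpr and tested in its quasi-likelihood test without a replicate term, with Benjamini-Hochberg adjustment over 17307 genes and the threshold of 0.001 that the paper used. Standard errors (SE) were derived from the fold change and the F statistic. RPKM were computed from TMM-scaled CPM and the deposited exon lengths. Libraries of a group differed by 1.31 to 2.10 times the variance that sampling gives, so none of the 6 was an identical copy of another. Separate cultures and repeat preparations of the same RNA cannot be told apart by this.

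Members and gene lists were chosen with earlier results of these data known, and the lists come from general knowledge. The genes named are all members, on each further list the 8 called genes with the largest change and the 5 with the highest level, the receptors of the members, and the nearest profiles. PTPRN, SYT7 and CADPS2 of the list of processing genes are described among the other observations. CDH5, PDGFRB, VWF, PECAM1, FURIN, PCSK4, PCSK5, PCSK6, PCSK7, CHGB, SCG3 and PENK were added after their values had been seen. The same holds for the NE markers DDC, INSM1, NCAM1, ELAVL4 and UCHL1. The alternatives were DESeq2 size factors, library size only, upper-quartile scaling, limma voom (version 3.58.1), DESeq2's own test (version 1.42.0), ONECUT2 left out, no filter, at least 10 counts in every library, a replicate block, each library left out, an adjusted p under 0.05 and a minimum absolute log2 fold change of 1. Promoter sequences are RefSeq's.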

Additional observations from a re-analysis of the deposited data

How the results depend on the processing

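The 4 counts of called genes (6 neuropeptide genes, 12 other neuropeptide genes, 11 receptors and 20 processing genes) stayed within 1.5 times under each of 17 alternatives, apart from a minimum absolute log2 fold change of 1, which left 3 neuropeptide genes (0 higher and 3 lower), 6 receptors and 9 processing genes. With each library left out in turn, 6 neuropeptide genes were called each time, and the counts were 9 to 12 for the other neuropeptide genes (lower calls 3 to 6), 10 to 11 for receptors and 18 to 20 for processing genes. Of the 49 called genes of the 4 lists, 39 were called in all 15 settings that refit the data. With at least 10 counts in every library 6 of the 49 were not tested (GRPR, NMUR2, CALCR, NPY, KISS1 and IAPP), and 6 were tested but not called in at least 1 setting (PENK in 12, CHGB in 6, UCN3 and CALCR in 4, PCSK6 in 3 and IAPP in 2). None had the other sign in a setting in which it was tested. GRP, ADCYAP1, NMU, SST, CALCA and NMB kept direction and call in all 15. CALCB passed with library size only (0.25, adjusted p = 8.17e-05), upper-quartile scaling (0.24, adjusted p = 0.000129) and at least 10 counts in every library (0.21, adjusted p = 0.000984), all in edgeR, and the first 2 of these move the median of all genes to 0.06 and 0.05. VGF turned to 0.018 with library size only, to 0.010 with upper-quartile scaling and to 0.0052 without control replicate 2, and lay between -0.091 and 0.0052 with each library left out. Over 11198 genes, the deviations of libraries with the same replicate number correlated at 0.00081, 0.024 and 0.018. Those of libraries with different numbers correlated at -0.023 to 0.0042. Libraries of a group differed by only 1.31 to 2.10 times the sampling variance, so these correlations cannot show whether the numbers pair the libraries. With the replicate block the neuropeptide genes called were again 6. Depth limits POMC and the receptors with few counts, and without a filter POMC had a log2 value of -1.16 with an adjusted p of 0.358 in edgeR.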

Other observations

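Of the 8 genes of granule membrane and release on the list of processing genes, a grouping made after their values had been seen, 2 were higher, 5 were lower and 1 did not pass, where 56.5% of all tested genes were called. PTPRN, the granule membrane protein IA-2, rose from 168 ± 3.05 to 480 ± 7.07 CPM (SD, n = 3), which is 1.51 on the log2 scale (SE 0.025, adjusted p = 1.03e-86, edgeR), while its paralog PTPRN2 fell by 0.66 on the log2 scale. SYT7, a calcium sensor of granule release, fell from 251 ± 4.34 to 91.1 ± 2.22 CPM (SD, n = 3), which is -1.47 on the log2 scale (SE 0.031). The priming factors CADPS2 and CADPS fell by 1.27 and 0.65. RAB27A, a GTPase of granule docking, rose by 0.61, RAB3D fell by 0.30, and RAB3A did not pass the threshold (log2 fold change -0.11, adjusted p = 0.190, edgeR). PTPRN2, CADPS, RAB27A, RAB3D and RAB3A were chosen after their values had been seen.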
